A study of Mus musculus with 10 samples.

Results

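Ribosome biogenesis factors are the proteins that transcribe, modify, cut and fold ribosomal RNA before a ribosome is exported, and 41 of the 10913 genes in the deposited liver table were taken as members. They were chosen by symbol alone: Nop, Nol, Utp and Rrp genes with a number, and Bop1, Pes1, Fbl, Ncl, Npm1, Wdr12, Wdr43, Wdr75, Gnl3, Dkc1, Ubtf and Nolc1. No measured value entered that rule, though the members were chosen with earlier results of these data known. Liver was sampled by biopsy from 10 wild-type C57BL/6 mice fed a western diet for 12 weeks, at a time when none had received drug. Of these, 3 mice were later given vehicle and 7 were later given obeticholic acid (OCA), an agonist of the bile acid receptor FXR. The OCA mice were named only afterwards as 3 responders and 4 non-responders, by the histological NAFLD activity score at the end of treatment. Every group therefore shared strain, genotype, diet and sampling time, and each biopsy is bulk tissue from 1 mouse. The comparisons ask whether the factors already differed before treatment, and whether they followed the share of counts assigned to Rn45s, the gene of the 45S ribosomal RNA precursor.

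Ribosome synthesis starts in the nucleolus, where UBTF (gene Ubtf) holds ribosomal DNA repeats open for RNA polymerase I. The transcript is bound by the t-UTP (UTP-A) complex and then by the small subunit processome, while box C/D and box H/ACA small nucleolar ribonucleoproteins (snoRNPs) methylate and pseudouridylate it. After cleavage, separate sets of factors, among them the Pes1, Bop1 and Wdr12 complex, assemble the large subunit. In liver these genes are known for rising during regeneration and growth.

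The members fell into 4 genes of ribosomal DNA transcription and the t-UTP complex, 7 of the snoRNPs, 15 of the small subunit processome and 40S maturation, 12 of large subunit assembly and 2 abundant nucleolar chaperones (Ncl and Npm1). Nol4l was matched by its name only and no ribosomal role was assumed for it. All 41 passed the low-count filter in every comparison. Total counts were 40432530 to 76529328 per biopsy, and the counts of a member in a biopsy ranged from 11 for Rrp36, in responder 3, to 22788 for Ncl. Hepatocyte markers were high in every biopsy (6 of 6 listed genes present, with a sum of 10224 to 23185 CPM, the count scaled to library size), as liver tissue has. Listed markers of Kupffer cells (3 of 5 present), sinusoidal endothelium (5 of 5), stellate cells (5 of 5), lymphocytes (1 of 5) and erythroid cells (2 of 5) overlapped between all groups in summed CPM. Cholangiocyte markers (3 of 5) were at 38.1 to 46.3 CPM in the vehicle group and 21.3 to 27.8 in responders. Other macrophage markers (2 of 5) were at 53.6 to 63.3 CPM in non-responders and 35.4 to 49.8 in responders. Proliferation markers (4 of 6) were at 15.4 to 17.8 CPM in the vehicle group and 7.16 to 14.7 in non-responders. The part of cell composition in the differences given here was not tested, and in bulk tissue fewer cells of a type and less RNA per cell cannot be told apart.

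Levels per length spanned a wide range. On the FPKM scale (fragments scaled to transcript length and library size), Nop10, a small subunit of the H/ACA particle, led with a mean of 141 ± 30.8 (SD, n = 10), followed by Npm1, a histone and ribosome chaperone, at 78.2 ± 21.4. Utp14b stood at 38.5 ± 30.5, Ncl (nucleolin, which binds nascent ribosomal RNA) at 29.0 ± 6.11 and Ubtf at 21.9 ± 2.18. The FPKM ranges of Utp14b, Ncl and Ubtf overlapped. The lowest were Utp20 at 0.634 ± 0.233, Nol8 at 0.546 ± 0.134 and Rrp1b at 0.329 ± 0.0711. The highest over the lowest CPM of a member was 1.42-fold for Nol6 and 6.45-fold for Rrp36, with Utp14b, at 356-fold, outside that range. The members together took 0.101 to 0.134% of all counts, and 0.117 to 0.160% of the counts other than Rn45s.

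**Figure D1:**
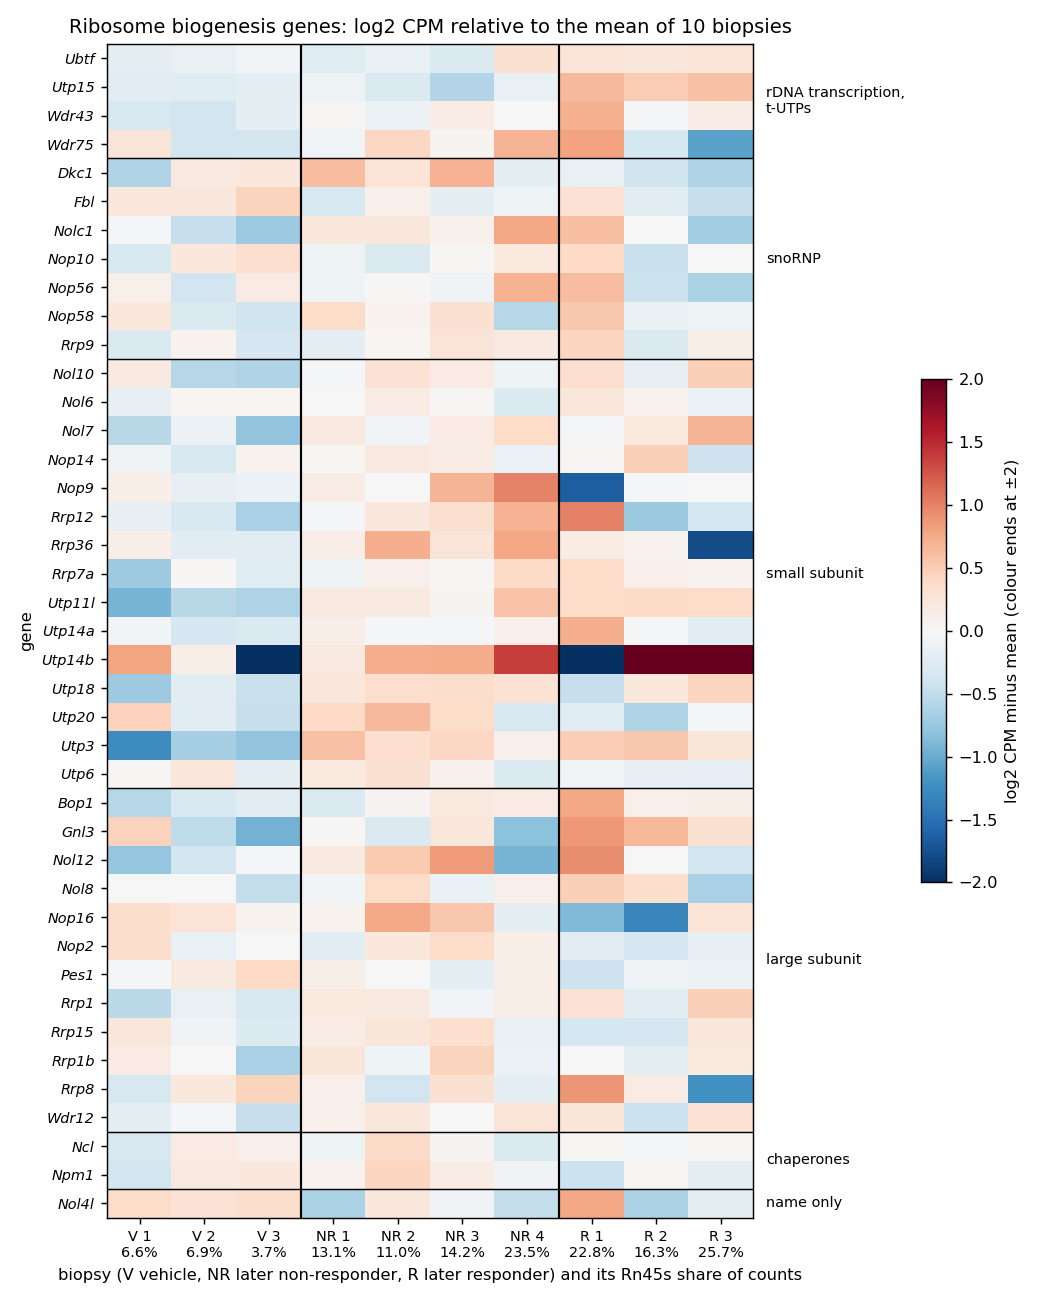
Heat map of the 41 genes (rows, ordered by role) in the 10 biopsies (columns, with the Rn45s share of counts under each name). Colour is log2 CPM, computed without Rn45s, minus the gene's mean over the 10 biopsies. Utp11l and Utp3 are low in all 3 vehicle biopsies, and the Utp14b row runs past both ends of the colour scale.

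The E-box CACGTG, bound by Myc and other basic helix-loop-helix factors, was sought in RefSeq promoter windows (build GRCm38.p6, 250 bases before to 50 after a start). The motif reads the same on both strands. Windows were at hand for 34 of the 41 genes, and 7 of them held it (20.6%), against 1030 of the 8571 genes of the table with a window (12.0%). In Pes1, Utp20 and Wdr43 the motif lay 3, 38 and 18 bases into the transcript. In Utp14b the RefSeq window belongs to a start inside the annotated gene, and its sequence is not shown. In Utp18, Nop2 and Rrp7a the motif began 20, 60 and 208 bases before the start, and these upstream stretches are shown to display the motif in place, 5′ to 3′ on the gene's strand, with CACGTG in capitals.
Utp18 (chr11:93885767-93885813, minus strand): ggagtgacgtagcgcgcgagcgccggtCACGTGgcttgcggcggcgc
Nop2 (chr6:125131796-125131855, plus strand): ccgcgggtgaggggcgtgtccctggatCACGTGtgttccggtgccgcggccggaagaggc
Rrp7a (chr15:83122977-83123036, minus strand): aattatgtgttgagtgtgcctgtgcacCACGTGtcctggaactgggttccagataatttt

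The 7 genes with the motif had a median log2 difference of 0.41 between the later OCA and vehicle groups, against 0.24 in the 27 without it. Utp14b, whose counts are uncertain, was the highest of the 7, at 1.31. Bop1, Nol6, Utp11l, Fbl, Utp6, Rrp12 and Npm1 had no window and are in neither set. Between responders and non-responders the medians were -0.18 and 0.04. These medians are descriptions of few genes, and a match is not a measured binding site. Myc itself was at 3.95 to 7.70 CPM in the vehicle group, 6.69 to 29.0 in non-responders and 35.9 to 37.9 in responders.

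None of the 41 factors passed the test between responders and non-responders. The edgeR quasi-likelihood test with Benjamini-Hochberg adjustment at 0.05 called 0 of 41, and 0 of all 10826 genes tested (0%). At an unadjusted p under 0.05, 3 of the 41 passed (7.32%), against 13.9% of all genes, and DESeq2 called 1 of the 41 and 273 genes in all. The median log2 difference was 0.02 over the members and -0.01 over all genes, and the estimate was above 0 in 23 of 41 (56.1%, against 49.2%). For 27 of the 41 the 95% interval lay within 1 log2 unit of 0 (65.9%, against 56.0% of all genes), and the median half-width of the intervals was 0.59.

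Utp15, a t-UTP subunit that couples ribosomal DNA transcription to processing, lies on chromosome 13 (98246845 to 98262992, GRCm38). It was at 8.93, 8.10 and 8.53 CPM in responders, 5.23, 4.63, 3.75 and 5.11 in non-responders, and 4.95, 4.84 and 5.08 in the vehicle group. All 3 responders were above every other biopsy. The log2 difference from non-responders was 0.87 ± 0.24 (SE), with an edgeR adjusted p of 0.219, whereas DESeq2 gave an adjusted p of 0.0211, and the range over the alternatives was 0.0211 to 0.513. Gnl3 (nucleostemin, a GTPase of large subunit assembly, chromosome 14, 31012433 to 31019131) was at 19.1, 16.7 and 13.0 CPM in responders and 10.6, 8.64, 12.3 and 5.95 in non-responders. These groups did not overlap either, but vehicle 1, at 14.7, was within the responders' range. Its log2 difference was 0.79 ± 0.28 (edgeR adjusted p = 0.267). With Nop9, which was lower, 3 of 41 members did not overlap between responders and non-responders (7.32%), against 14.3% of all genes.

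Dkc1 (dyskerin, the pseudouridine synthase of H/ACA snoRNPs, chromosome X, 75095854 to 75109776) had values of 13.9, 11.7 and 10.2 CPM in responders. In non-responders it was at 23.5, 18.7, 25.0 and 13.5. The groups overlapped by 1 biopsy, and the log2 difference was -0.76 ± 0.26 (edgeR adjusted p = 0.258). Nop9, an RNA-binding factor of the small subunit, was at 1.11, 3.48 and 3.59 CPM in responders and 3.93, 3.60, 5.73 and 7.11 in non-responders. The lowest non-responder and the highest responder were nearly equal, and the log2 difference was -0.89 ± 0.45 (edgeR adjusted p = 0.418). Exons of Nop9 share 1136 of 3800 bases (29.9%) with Cideb on the opposite strand, and no source used here says whether counting used strand, so its values are uncertain. Npm1 was at 80.7, 112 and 95.7 CPM in responders and 114, 148, 120.3 and 104 in non-responders, an overlapping pair of ranges with a log2 difference of -0.34 ± 0.18 (edgeR adjusted p = 0.431). Npm1 has processed pseudogenes in the mouse genome, so its count is uncertain.

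For the remaining factors spelled out in the rule, the interval of the difference between responders and non-responders held 0. Ubtf was at 126 ± 2.78 CPM (SD, n = 3) in responders and 101 ± 20.8 (n = 4) in non-responders, where non-responder 4, at 132, was above all responders. The log2 difference of Ubtf was 0.32 ± 0.17 (edgeR adjusted p = 0.446). Ncl had nearly the same mean in the vehicle group, non-responders and responders, at 248 ± 43, 251 ± 51.9 and 248 ± 4.99 CPM. The C/D snoRNP proteins Fbl (fibrillarin, the methyltransferase), Nop56 and Nop58 had log2 differences of 0.01, -0.22 and 0.05, with SEs of 0.24, 0.34 and 0.26. In the Pes1, Bop1 and Wdr12 complex the log2 differences were -0.21, 0.32 and -0.07, with SEs of 0.20, 0.21 and 0.22. The H/ACA protein Nop10 was at 0.05 ± 0.21 and Nolc1, a snoRNP chaperone, at -0.29 ± 0.31. The t-UTP proteins Wdr43 and Wdr75 were at 0.30 ± 0.21 and -0.30 ± 0.43.

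**Figure D2:**
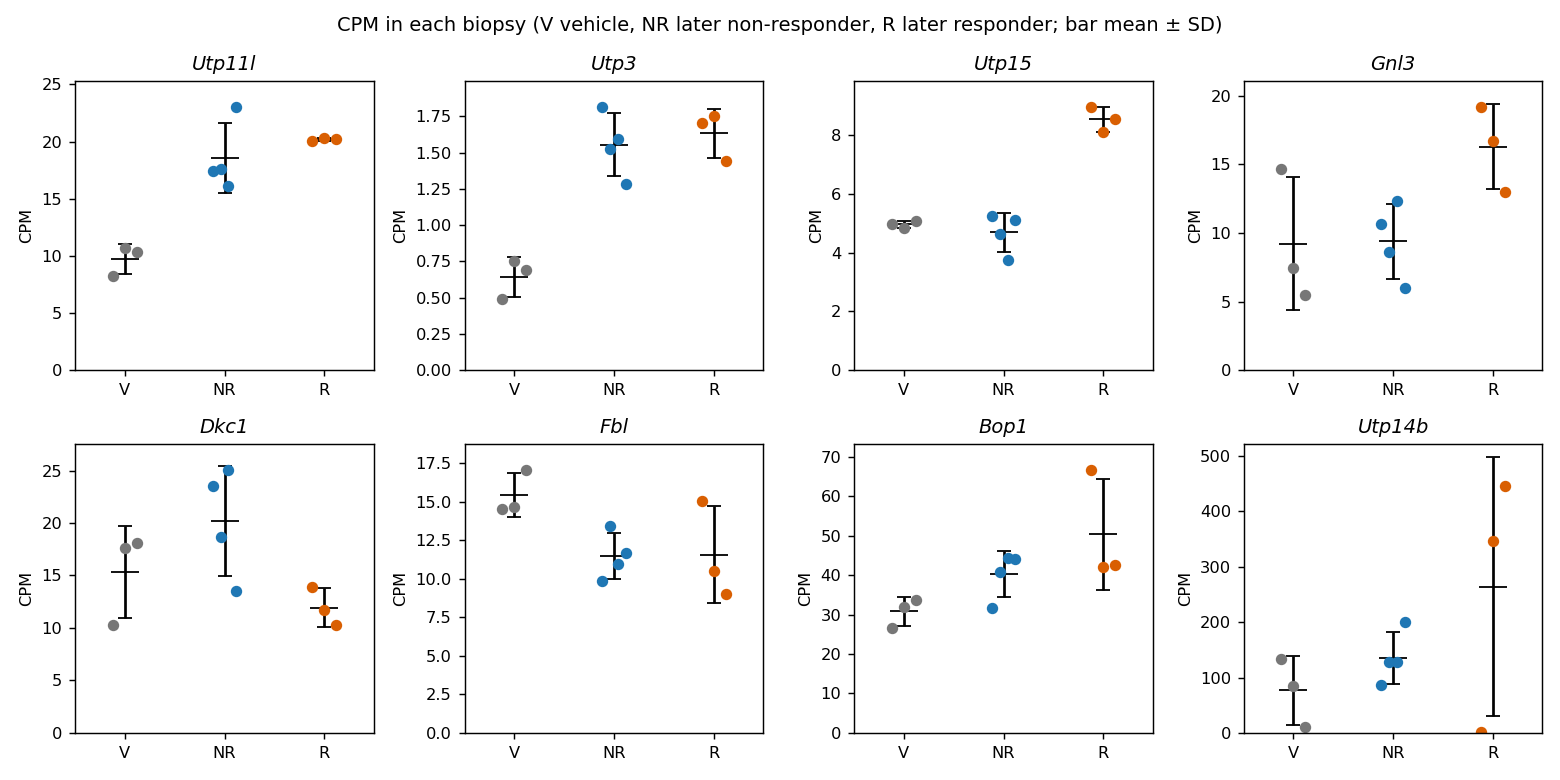
CPM of 8 genes in every biopsy (points) with the group mean and SD (bars) for the vehicle group (V, n = 3), later non-responders (NR, n = 4) and later responders (R, n = 3). Utp11l and Utp3 are lower in the 3 vehicle biopsies than in all 7 OCA biopsies, Utp15 is higher in the 3 responders than in the other 7, and Utp14b spans 1.25 to 446 CPM.

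Between the later OCA and vehicle groups, Utp11l was the 1 member of 41 that passed the test (2.44%, against 1.19% of 10844 genes). Utp11l (RefSeq symbol Utp11, chromosome 4, 124678232 to 124693610) encodes a subunit of the small subunit processome. It was at 8.25, 10.7 and 10.3 CPM in the vehicle group, at 17.5, 17.6, 16.2 and 23.0 in non-responders, and at 20.1, 20.3 and 20.3 in responders. All 7 OCA biopsies were above all 3 vehicle biopsies. The log2 difference was 0.99 ± 0.18, with an interval of 0.59 to 1.38 (edgeR adjusted p = 0.0336), so Utp11l was higher in mice that had not yet received the drug. The edgeR adjusted p rose to 0.0852, 0.122 and 0.15 without vehicle 1, 2 or 3, to 0.0532 without non-responder 3, and to 0.0578 and 0.0565 without responder 2 or 3, with log2 differences of 0.88 to 1.06. The genes called over the whole table fell from 129 to 20, 1 and 1 without vehicle 1, 2 or 3. They fell to 9 without non-responder 3, and to 20 and 9 without responder 2 or 3. The Rn45s share of counts also separated these groups. With its log2 as a covariate the log2 difference of Utp11l was 0.69 (edgeR adjusted p = 0.656), and 0 genes of the table were called. As the shares of these groups did not overlap, that fit can hardly tell group from share. A call lost under it does not show that the call is unstable. Over all alternatives the adjusted p of Utp11l ran from 2.52e-05 to 0.656.

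Utp3, another processome subunit (chromosome 5, 88554462 to 88556090), showed the same order of groups. It was at 0.489, 0.752 and 0.693 CPM in the vehicle group, 1.81, 1.52, 1.60 and 1.29 in non-responders and 1.71, 1.75 and 1.44 in responders, from 33 to 113 counts per biopsy. Again all 7 OCA biopsies were higher, with a log2 difference of 1.30 ± 0.30 that missed the threshold (edgeR adjusted p = 0.0577). DESeq2 gave 0.00328, and the adjusted p over the alternatives ran from 0.00328 to 0.633.

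At an unadjusted p under 0.05, 8 of 41 members passed between the OCA and vehicle groups (19.5%), against 19.2% of all genes. Of these, 7 were above 0 (17.1%, against 10.6%): Utp11l, Utp3, Utp18, Bop1, Nol7, Rrp1 and Wdr43. Fbl was the 1 below 0 (2.44%, against 8.61%). Fbl (chromosome 7, 28168893 to 28179269) was at 14.6, 14.7 and 17.1 CPM in the vehicle group, 9.84, 13.4, 10.9 and 11.7 in non-responders and 15.1, 10.5 and 9.03 in responders. Only responder 1 reached the vehicle range, and the log2 difference was -0.42 ± 0.19 (edgeR adjusted p = 0.256). Bop1 was at 26.7, 32.0 and 33.8 CPM in the vehicle group, against 31.7, 40.8, 44.4 and 44.1 in non-responders and 66.6, 42.1 and 42.5 in responders. Non-responder 1 lay among the vehicle values, and the log2 difference of Bop1 was 0.53 ± 0.21 (edgeR adjusted p = 0.187). Utp18, of the small subunit processome, lay at 0.66 ± 0.25 (edgeR adjusted p = 0.181), Pes1, the partner of Bop1, at -0.27 ± 0.18 and Nol4l at -0.42 ± 0.31.

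Groups did not overlap for 4 of 41 members (Utp11l, Utp3, Nol7 and Wdr43; 9.76%, against 10.3% of all genes, and all higher in the OCA group, against 5.51%). The estimate was above 0 in 32 of 41 (78.0%, against 50.2%), with a median of 0.24 against 0.00 over all genes. By role, the median log2 difference was 0.41 for the small subunit factors (14 of 15 above 0), 0.32 for ribosomal DNA transcription and the t-UTPs (4 of 4), 0.22 for large subunit assembly (8 of 12), 0.12 for the snoRNPs (5 of 7) and -0.01 for the chaperones. On FPKM values, whose total includes Rn45s, the median of the members was -0.03 and that of all genes -0.25, a gap of 0.22. The whole-table shift on that scale was -0.22 between responders and non-responders.

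Split by outcome, and with the same 3 vehicle biopsies in both, responders against vehicle gave Utp11l at 1.04 ± 0.21 (edgeR adjusted p = 0.0360) as the 1 member called of 41 (2.44%, against 4.52% of 10785 genes). That call was kept without vehicle 1 and lost without each of the other 5 biopsies (edgeR adjusted p 0.0635 to 0.159). Over all genes, 0 to 81 were called in those 5 fits, against 488. Non-responders against vehicle called 0 of 41 (0%, against 0.0462% of 10832 genes), and DESeq2 called 3 of 41 and 382 genes in all. There Utp11l was at 0.94 ± 0.20 (edgeR adjusted p = 0.134). The difference of Utp11l between responders and non-responders was 0.12, with an interval of -0.30 to 0.55. For responders and non-responders against vehicle, the medians of the members were 0.25 and 0.26, with 26 of 41 (63.4%, against 49.2%) and 34 of 41 (82.9%, against 49.6%) above 0. Without responder 1, the responders' median was 0.04. At an unadjusted p under 0.05, 6 of 41 passed in responders (14.6%, against 26% of all genes) and 7 of 41 in non-responders (17.1%, against 14.6%). Groups did not overlap for 10 of 41 (24.4%, against 32.7%) and 12 of 41 (29.3%, against 16.4%).

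**Figure D3:**
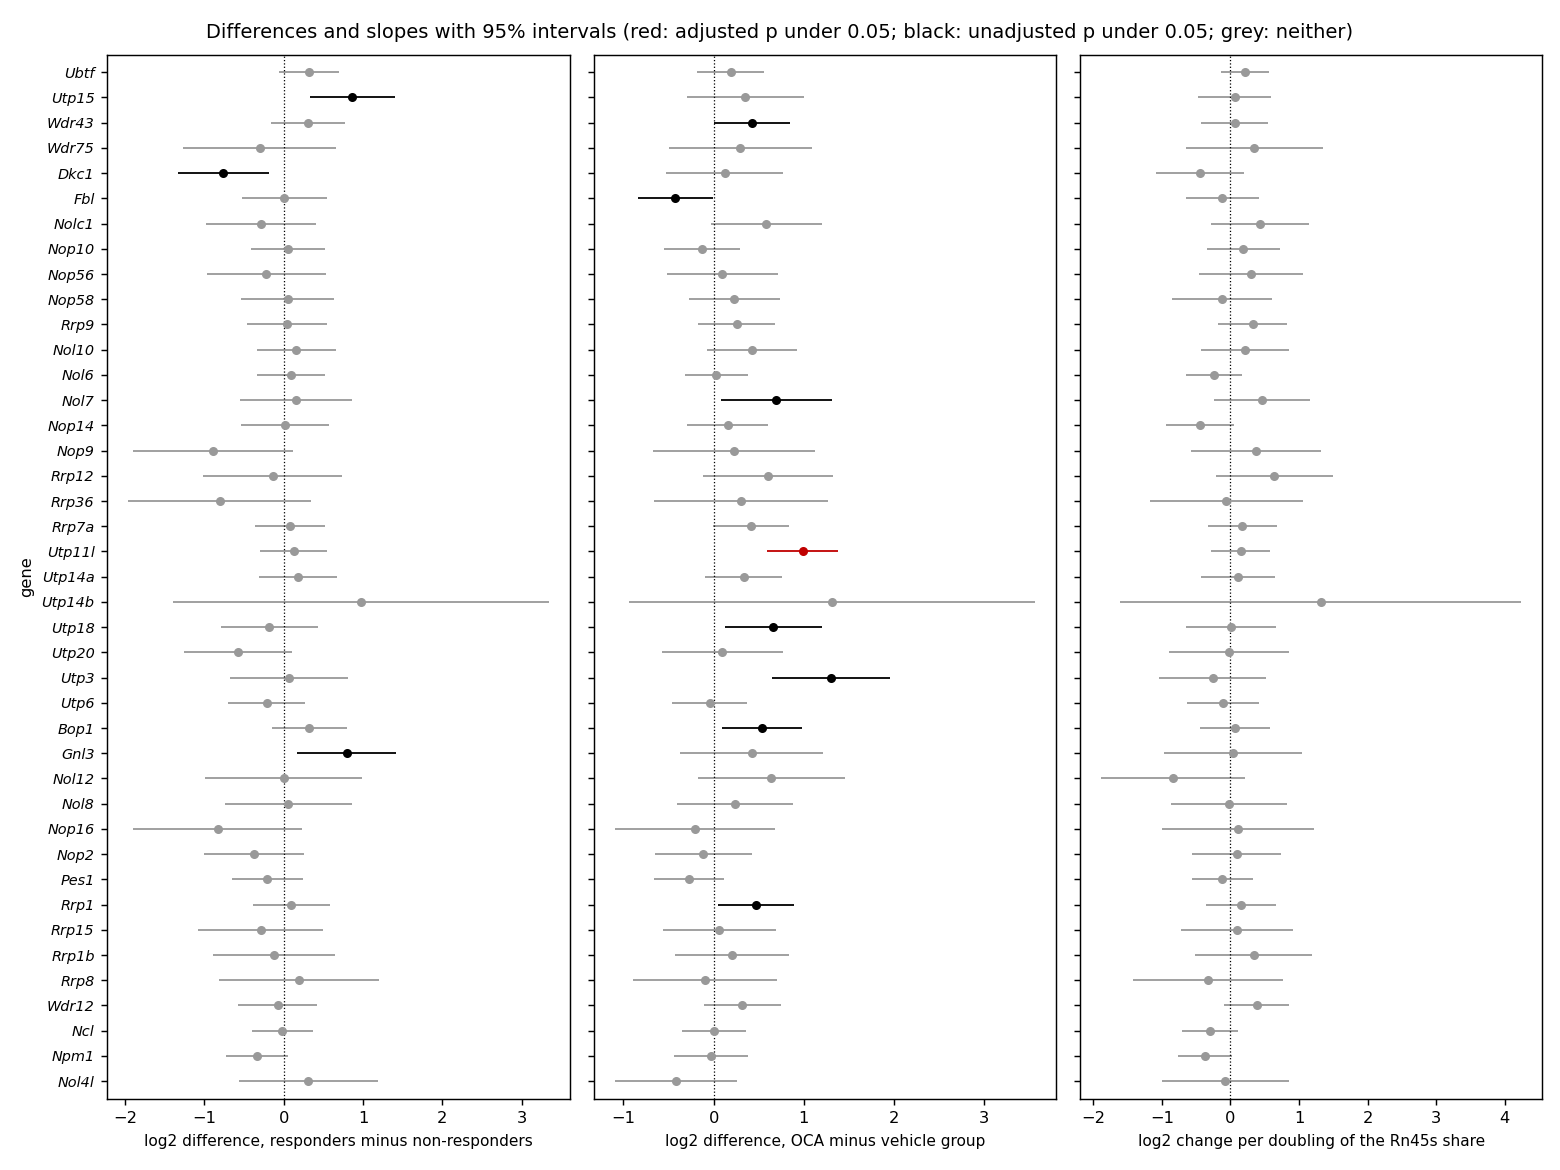
Log2 difference or slope (points) and 95% interval (bars) of each of the 41 genes for responders minus non-responders, for the OCA group minus the vehicle group, and per doubling of the Rn45s share within groups. Red marks an adjusted p under 0.05, which Utp11l alone has (0.99, OCA minus vehicle), black an unadjusted p under 0.05, and grey neither.

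Rn45s took 3.70 to 6.87% of counts in the vehicle group, 11.0 to 23.5% in non-responders and 16.3 to 25.7% in responders. The OCA and vehicle groups did not overlap (two-sided exact permutation test, p = 0.0167, the smallest that 7 against 3 allows), whereas responders and non-responders did (exact p = 0.171). The gap between the OCA and vehicle groups was known from earlier results of these data, so its p is a description and not support. Between these groups 10.3% of all genes did not overlap. Both library kits named in the labels are mRNA kits, so the share is one of counts. How it relates to the amount of precursor or of mature ribosomal RNA in the tissue was not tested. The members were asked to follow this share within groups, by an edgeR slope per doubling with the group as a factor. No slope passed: 0 of 41 were called (0 of 10842 genes, 0%), and 0 of 41 had an unadjusted p under 0.05, against 11.7% of all genes. DESeq2 also called 0 of 41. The median slope was 0.07 against 0.01 over all genes, and 25 of 41 slopes were above 0 (61.0%, against 50.7%). The interval lay within 1 log2 unit of 0 for 26 of 41 (63.4%, against 53.9%).

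The members of smallest p above 0 were Wdr12 (0.39 ± 0.21), the small subunit export factor Rrp12 (0.64 ± 0.39) and Nol7 (0.46 ± 0.32). Below 0 they were Npm1 (-0.37 ± 0.18), the processome protein Nop14 (-0.44 ± 0.23) and Nol12, a nucleolar RNA-binding protein (-0.84 ± 0.48). Their edgeR adjusted p was 0.446 to 0.573. Exons of Nol7 share 453 of 2753 bases (16.5%) with Ranbp9 on the opposite strand, so its count is uncertain. Ubtf had a slope of 0.21 ± 0.16, Ncl of -0.29 ± 0.18 and Fbl of -0.12 ± 0.24.

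Without the group term, which lets the gap between the vehicle and OCA groups enter, 1 of 41 was called (2.44%, against 7.64% of all genes). This was Utp11l, at 0.49 ± 0.10 per doubling (edgeR adjusted p = 0.0175), and it was lost without vehicle 2 (0.0610). In that fit 159 genes of the table were called, against 828. With the group term the slope of Utp11l was 0.15 ± 0.20 (edgeR adjusted p = 0.786). At an unadjusted p under 0.05, 11 of 41 passed without the term (26.8%, against 27.1%), all above 0 (against 14.5% higher), and 27 of 41 slopes were above 0 (65.9%, against 51.9%).

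Across the 7 OCA biopsies alone, correlation of log2 CPM with the log2 Rn45s share was tested by exact permutation over every order of the biopsies, two-sided, in 10842 genes. After adjustment 0 of 41 passed (0% of all genes), 4 of 41 had an unadjusted p under 0.05 (9.76%, against 14.3%), and r was above 0 in 17 of 41 (41.5%, against 47.3%). Npm1 had the smallest p (Pearson r = -0.86, exact permutation p = 0.00655, adjusted p = 0.297; Spearman rho = -0.86, p = 0.0238), and without responder 3 and non-responder 4, the biopsies farthest from the median share, r was -0.96. Utp6, a processome subunit, had r = -0.87 (exact permutation p = 0.0177, adjusted p = 0.302; rho = -0.93, p = 0.00675) and -0.80 without those biopsies. Ubtf had r = 0.86 (exact permutation p = 0.0437, adjusted p = 0.339; rho = 0.75, p = 0.0663) and 0.78 without them. In CPM, Ubtf was at 89.1, 97.0 and 86.9 in the 3 non-responders of lowest share, and at 132, 127, 123 and 128 in the remaining OCA biopsies. Those were non-responder 4 and all 3 responders, so the split also follows outcome in part. In vehicle 1, 2 and 3, outside this correlation, Ubtf was at 94.2, 96.9 and 104 CPM. Their shares were lower still (6.58, 6.87 and 3.70%), so Ubtf did not rise with the share over all biopsies. Utp11l had r = 0.78 (exact permutation p = 0.0492, adjusted p = 0.347; rho = 0.68, p = 0.11) and 0.69 without them. By rank, the unadjusted p of Ubtf and Utp11l was thus above 0.05. The median r over the members was -0.14 and moved to 0.37 without responder 3 and non-responder 4, so its sign rests on those biopsies.

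**Figure D4:**
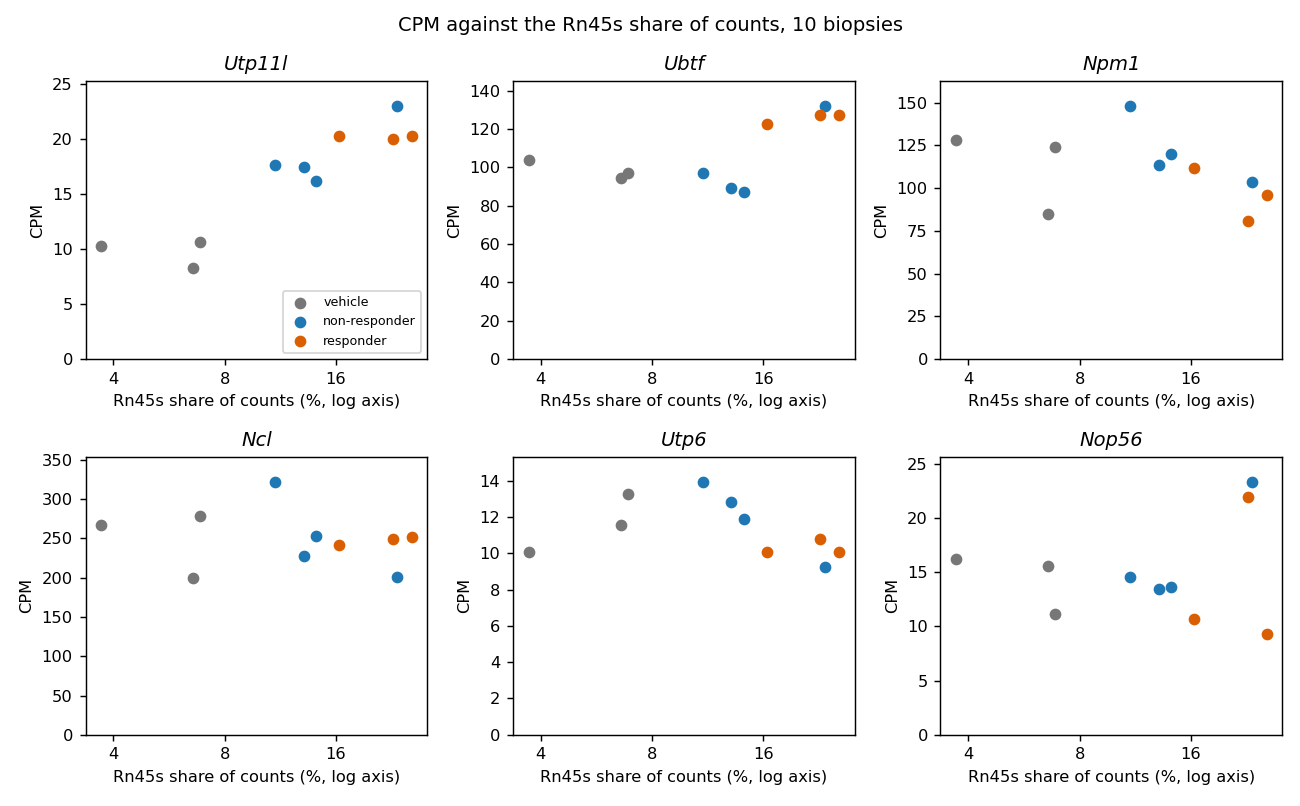
CPM of 6 genes (vertical axes, from 0) against the Rn45s share of counts (horizontal log axis) in 10 biopsies, coloured by group. Utp11l steps up between the vehicle group (8.25 to 10.7 CPM) and the OCA biopsies (16.2 to 23.0 CPM), and Npm1 is at 148 CPM in the OCA biopsy of lowest share (11.0%) and at 95.7 CPM in that of highest share (25.7%).

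The wider pathway was described from lists chosen with earlier results of these data known. Between responders and non-responders and between the OCA and vehicle groups, edgeR called 0 of 10 genes of RNA polymerase I and its factors, 0 of 37 other small subunit factors, 0 of 46 other large subunit factors, 0 of 12 other snoRNP and assembly factors and 0 of 14 genes of the RNA exosome. Over all genes it called 0% of 10826 in the first comparison and 1.19% of 10844 in the second. With shares that low, 0 calls in these lists are no trait of them. At an unadjusted p under 0.05, 6 of the 119 genes of these lists passed in the first comparison (5.04%, against 13.9% of all genes) and 17 in the second (14.3%, against 19.2%), 14 of them higher (11.8%, against 10.6%) and 3 lower (2.52%, against 8.61%). Responders against vehicle called Wdr36 lower (-1.12 ± 0.25, edgeR adjusted p = 0.0454), a processome subunit, and Rrs1 higher (1.18 ± 0.27, edgeR adjusted p = 0.0470), which brings 5S RNA to the large subunit. These were 2 of 119 (1.68%, against 4.52% of all genes), and without vehicle 3 no gene of the table was called in that comparison. Within groups none of these lists had a gene with a called slope, and neither had the whole table (0 of 10842 genes). Without the group term, Rrs1, Taf1d of the polymerase I selectivity factor and Zcchc7 of the exosome-linked TRAMP complex rose with the share, and Naf1, an H/ACA assembly factor, fell, which made 4 of 119 (3.36%, against 7.64%).

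The structural proteins of the cytosolic ribosome are the products that these factors assemble with ribosomal RNA. Between responders and non-responders the 84 ribosomal protein genes had a median log2 difference of -0.47, with 0 called by edgeR (0 of 10826 genes in all). DESeq2 called 6 lower, and 273 genes of the table in all. The DESeq2 totals over all genes given here are not split by direction. At an unadjusted p under 0.05, 29 were lower (34.5%, against 6.13% of all genes) and 2 higher (2.38%, against 7.74%). Between the OCA and vehicle groups the median was -0.42, and Rpl8, Rps14 and Rps29 were called lower (-1.15 ± 0.25, -0.98 ± 0.20 and -1.41 ± 0.31; 3.57%, against 0.341% of all genes). These calls fell to 0 without vehicle 2, vehicle 3, non-responder 3 or any 1 responder. They were 1 without non-responder 4, 2 without vehicle 1 and 5 without non-responder 1 or 2. Over all genes, calls with 1 biopsy left out ran from 1 to 158, against 129. The count lower was 15 with DESeq2 (665 genes called in all) and 8 with limma on the authors' log2 values (262). In 1 fit of all 10 biopsies it was 18 (475). It was 0 with the Rn45s share as a covariate (0 in all) and with limma on log2(FPKM + 0.1) (11). With the replicate block, whose numbers do not pair biopsies, it was 0 as well (0 in all). Responders against vehicle gave a median of -0.68, with 23 called lower (27.4%, against 1.98%) and 1 higher. Without a biopsy the count lower was 41 (vehicle 1), 4 (responder 1) or 0 (each of the other 4). Calls over all genes then ran from 0 to 848, against 488. The count lower was 43 with DESeq2 (1548 genes called in all) and 31 with limma on the authors' log2 values (710). It was 48 with limma on log2(FPKM + 0.1) (1509), 29 in 1 fit of all 10 biopsies (928) and 8 with the replicate block (74). Within groups, the median slope of the ribosomal proteins per doubling of the Rn45s share was -0.45, with 0 called by edgeR (0 of 10842 genes in all). DESeq2 called 4 lower, and 76 genes of the table in all. At an unadjusted p under 0.05, 37 were lower (44.0%, against 5.83% of all genes). For the 41 members the median slope was 0.07. Without the group term 32 were called lower (38.1%, against 3.37%) and 1, Rpl34, higher. That count of 32 was 13 without vehicle 2 or vehicle 3, 18 without responder 1 and 17 without responder 3. It was 36 without vehicle 1, 39 without non-responder 1 and 24 to 26 without any other biopsy. Calls over all genes then ran from 159 to 981, against 828. With DESeq2 the count lower was 46 (1538 genes called in all), and with limma on the authors' log2 values 36 (1051). With the share in percent in place of log2 it was 43 (1031). Leaving out non-responder 4 moved the within-group median of the ribosomal proteins to -0.22, and with the Rn45s share as a covariate their OCA median was 0.45. That covariate fit can hardly tell group from share. Ribosomal protein genes have many processed pseudogenes, so their counts are uncertain. Whether the 2 sets differ was not tested.

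Utp14b was set apart by its spread. In the mouse it is a retroposed copy of the X-linked processome gene Utp14a that lies within Acsl3 (chromosome 1, 78657825 to 78667601). It was at 134, 84.9 and 11.3 CPM in the vehicle group, 86.6, 127, 128 and 201 in non-responders, and 1.25, 346 and 446 in responders. Responder 1 was the lowest of the 10 biopsies and responders 2 and 3 the highest, so groups overlapped throughout and the log2 difference between responders and non-responders was 0.97 ± 1.06. The parent gene Utp14a was at 42.5, 35.0 and 36.5 CPM in the vehicle group, 47.8, 43.1, 43.0 and 46.8 in non-responders and 72.8, 43.1 and 37.9 in responders, and did not share that order. GENCODE exons of Utp14b share 244 of 7679 bases with Acsl3 on the same strand. Acsl3, a fatty acyl-CoA synthetase gene, was at 15.9 CPM in responder 1 and 112 and 129 in responders 2 and 3, against 30.8 to 66.3 in the other biopsies. How reads were divided between them was not tested, and Utp14b is reported as uncertain.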

How the data were processed

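Liver RNA of 10 biopsies was sequenced as paired ends. Per the methods and the submitters' processing notes, FastQC 0.11.7, Trimmomatic 0.38, HISAT2 2.1.0 and StringTie were used with mm10. The labels name 2 mRNA library kits for each sample, and no source used here says whether counting used strand. The table holds read counts (whole numbers, deposited without scaling), FPKM as StringTie gave it to the authors, and the authors' log2(FPKM + 1) after quantile normalization, for genes above 0 in each biopsy. The authors' fold changes, p-values and group means were not used.

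Groups came from the sample titles, and p-values measure the spread between mice. Each title also ends in a bracketed code, whose meaning no source used here gives. No vehicle biopsy shares the first number of its code with an OCA biopsy, and what the code means for the values was not tested. Counts were tested over the whole table with edgeR 4.0.16 in R 4.3.3 (TMM, filterByExpr with minimum count 10 and minimum total 15, quasi-likelihood test, Benjamini-Hochberg at 0.05), each fit holding only the groups compared. CPM values use TMM over all 10 biopsies. Rn45s was left out of slope fits and correlations (log2 CPM, prior count 2). The tests were checked on simulated data. DESeq2 1.42.0, limma 3.58.1 (pseudocount 0.1 for FPKM), other scalings and filters, a replicate block, the Rn45s share as a covariate, and leaving out each biopsy were the alternatives. Biopsies of a group differed by far more than sampling noise (median chi-square per gene 9.13 to 33.5).

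The members and lists were chosen with earlier results of these data known. Named genes are those spelled out in the rule, the snoRNP core, and the 3 of smallest p in each direction in the main comparisons and the within-group slope. Utp6, Utp14b and other genes named as called, non-overlapping or outlying were added after their values were seen. Gene positions are RefSeq (GRCm38.p6, 41 of 41 matched), and exon overlaps are GENCODE M21, in which 13 of 41 overlap another protein-coding gene.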

Additional observations from a re-analysis of the deposited data

Results flagged for a closer look

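Outlying biopsies were sought by Dixon's ratio in the 4 non-responders and in the 7 OCA biopsies for each of the 41 genes, and 6 of 82 groups were marked, where chance marks about 1 in 20. The share of all genes marked by this rule is not given here, so the count cannot be read as a trait of these genes. The 4 non-responders are among the 7 OCA biopsies, so the groups are not independent. Responder 1 was the biopsy in 4 of the marked groups. It was the highest for Bop1 (66.6 CPM, next 44.4), Utp14a (72.8 CPM, next 47.8) and Wdr43 (39.6 CPM, next 27.0), and the lowest for Utp18 (3.93 CPM, next 6.26). Non-responder 2 was the highest for Ncl (322 CPM, next 253) among the 7 OCA biopsies. Non-responder 4 was the highest for Nop56 (23.3 CPM, next 14.6) among the 4 non-responders. Responder 1 and non-responder 4 were also the shallowest libraries, with 40609599 and 40432530 counts, and their Rn45s shares were 22.8 and 23.5%. The part of depth in these values was not tested.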

How the results depend on the processing

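Beside leaving out a biopsy, Utp11l was called between the OCA and vehicle groups in 6 of 9 alternatives and lost in 3. The count of members called there was 2 with DESeq2, with limma on the authors' log2 values and with all 10 biopsies in 1 fit (Utp11l and Utp3), and 0 with limma on log2(FPKM + 0.1), with the Rn45s share as a covariate and with the replicate block. The last 3 of these called 11, 0 and 0 genes of the table. Under the covariate Pes1 was at 0.0345 in place of -0.27 (edgeR adjusted p = 0.989). Rn45s shares of the OCA and vehicle groups did not overlap, so the covariate fit can hardly tell group from share. DESeq2 called 1 member between responders and non-responders (Utp15), 4 in responders and 3 in non-responders against vehicle, and 2 in the slope without the group term. Limma on the authors' log2 values called 3 in responders against vehicle and 2 in that slope, and 1 fit of all 10 biopsies called 2 in responders against vehicle.

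On log2(FPKM + 0.1) the median of the members was -0.21 between responders and non-responders, -0.0322 between the OCA and vehicle groups, and -0.15 and 0.0834 for responders and non-responders against vehicle. In the same order, the medians over all genes on that scale were -0.22, -0.25, -0.37 and -0.16. Members minus all genes thus gave 0.01, 0.22, 0.21 and 0.24. On the authors' log2 values it was 0.14 between the OCA and vehicle groups, 0.14 and 0.17 for responders and non-responders against vehicle, 0.0166 for the slope within groups and 0.0546 without the group term. The median r of the members in the OCA biopsies was 0.37 without the 2 farthest biopsies.

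Leaving out 1 biopsy at a time, members called ran from 0 to 1 for OCA against vehicle, 0 to 2 for responders against vehicle and 0 to 2 for the slope without the group term, and stayed 0 elsewhere. Medians ran from -0.15 to 0.0744 (responders against non-responders), 0.20 to 0.34 (OCA), 0.0369 to 0.35 (responders against vehicle), 0.22 to 0.30 (non-responders against vehicle), 0.0216 to 0.15 (slope within groups) and 0.0635 to 0.20 (without the group term).

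Over all genes, DESeq2 called 273 between responders and non-responders (edgeR 0), 665 between OCA and vehicle (edgeR 129), 1548 and 382 for responders and non-responders against vehicle (edgeR 488 and 5), 76 in the within-group slope (edgeR 0) and 1538 without the group term (edgeR 828). Limma on the authors' log2 values called 262 genes between OCA and vehicle, 710 in responders against vehicle and 1051 in the slope without the group term, and 1 fit of all 10 biopsies called 475 and 928 in the first and second of these. Same-numbered biopsies did not deviate together (9 pairs, r -0.07 to 0.06), so the numbers do not pair them. With the replicate block 0 members were called for OCA and for responders against vehicle, and 0 and 74 genes of the table. As the block follows no pairing, a call lost under it does not show that the call is unstable. Groups of 3 and 4 mice limit the precision: the median half-width of a member's interval was 0.59 between responders and non-responders.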

Other observations

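Likeness among the 41 genes was described by Pearson's r of log2 CPM deviations from the group means over the 10 biopsies. The median over 820 pairs was 0.06, against 0.00 over all genes, and 55.4% of pairs were above 0, against 49.9%. The pair most alike was Nolc1, a snoRNP chaperone, with the t-UTP subunit Wdr75 (r = 0.94), and the pair least alike was Utp14a with Utp18, both of the small subunit processome (r = -0.97). Dkc1 with Utp3 had r = 0.91, and Gnl3 with Nop58 had r = 0.85. The points share libraries, and these values are descriptions.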
